A study of Mus musculus with 2 samples.

Results

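The levels of 10 genes tied to lipid-laden macrophages and to lipid uptake were compared across the cell classes of the mouse aorta, with and without diabetes. The genes were Trem2, Gpnmb, Cd9, Lgals3, Fabp4, Fabp5, Lpl, Cd36, Cd5l and Abca1. They were chosen by symbol, and all 10 were among the 19357 genes of both libraries. Mice of both groups were male C57BL/6 animals lacking Apoe, so the controls carry the deletion as well. Diabetes was induced with streptozotocin, a toxin of pancreatic beta cells, given at 6 weeks of age as 5 daily doses of 55 mg/kg, while control mice received the citrate vehicle. Aortae were taken after 10 weeks of follow-up, at 17 weeks of age, in a study of the transcription factor AP-1 in diabetes-associated atherosclerosis. Tissue from 4 mice per group was pooled and digested with Liberase, hyaluronidase and DNase, sorted with 7AAD and calcein for living cells, and made into 1 droplet library per group. Since each group is 1 pool, the spread between mice cannot be seen, no test of diabetes was possible, and every interval given here is a 95% interval that covers counting error only.

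Foam cells are macrophages filled with lipid droplets. They take up modified lipoproteins through scavenger receptors such as the product of Cd36, store the cholesterol as esters and export part of it through transporters such as the product of Abca1. Macrophages rich in Trem2, Gpnmb, Cd9, Lgals3 and Fabp5 are a known state of lipid-rich tissue. Several of the genes are not macrophage genes alone. Fabp4, Cd36 and Lpl are high in adipocytes, Fabp4 and Cd36 also in capillary endothelium, and Cd9 in many cell types. Each gene is therefore given by class, as the authors' deposited classification assigns the cells.

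Promoters bear on the design because AP-1 is its subject. Windows of up to 250 bases before and 50 bases after the gene start were taken from RefSeq (GRCm38.p6), and 7 of the 10 genes had one. Each was searched on both strands for the AP-1 motif TGAGTCA, whose other strand reads TGACTCA, for the E-box CACGTG, and for direct repeats of AGGTCA spaced by 1 or 4 bases, which nuclear receptors bind. The 2 windows with a match, which hold 1 match each, are shown 5′ to 3′ on the gene's strand, with the match in capitals. The Gpnmb window lies at chr6:49036268-49036532 on the plus strand. Its AP-1 match begins at base 9, with the RefSeq start base as 1. That start lies upstream of the GENCODE gene start given below for Gpnmb. The Abca1 window lies at chr4:53159896-53160145 on the minus strand, and its E-box match begins 147 bases before the start.
Gpnmb: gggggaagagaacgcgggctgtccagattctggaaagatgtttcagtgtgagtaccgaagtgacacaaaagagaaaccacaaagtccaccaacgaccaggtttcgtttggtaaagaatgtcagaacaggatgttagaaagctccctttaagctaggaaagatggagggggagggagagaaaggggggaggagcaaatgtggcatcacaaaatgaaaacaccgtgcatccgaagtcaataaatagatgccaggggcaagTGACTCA
Abca1: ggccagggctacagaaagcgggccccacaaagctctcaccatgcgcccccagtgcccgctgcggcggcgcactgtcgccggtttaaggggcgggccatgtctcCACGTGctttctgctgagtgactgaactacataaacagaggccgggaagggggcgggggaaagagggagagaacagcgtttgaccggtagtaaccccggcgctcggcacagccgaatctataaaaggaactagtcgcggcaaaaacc
Among 32851 promoter windows, 5.20% held the AP-1 motif and 7.15% the E-box, while the AGGTCA repeats spaced by 1 and by 4 bases, which none of the 7 windows held, were in 0.0396% and 0.0152%. A match is a description of these letters and shows no binding.

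By the GENCODE annotation of GRCm38, Fabp4 (chromosome 3, 10204088 to 10208576) and Fabp5 (chromosome 3, 10012548 to 10016607) lie 187480 bases apart on opposite strands. Fabp5 has an annotated pseudogene copy, Fabp5l2, so its counts are uncertain where reads fit both. Cd9 (chromosome 6, 125460266 to 125494791) overlaps genes on the other strand, and the sources used here do not state whether counting used strand. Trem2 lies on chromosome 17 (48346401 to 48354147), Gpnmb on chromosome 6 (49036546 to 49070929), Lgals3 on chromosome 14 (47367751 to 47386160) and Cd36 on chromosome 5 (17781690 to 17888801). Lpl lies on chromosome 8 (68880491 to 68907448), Cd5l on chromosome 3 (87357881 to 87371073) and Abca1 on chromosome 4 (53030787 to 53159895).

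The control library held 3060 classified cells with 12390769 UMIs (unique molecules counted) and the diabetic library 2524 with 11833577, besides 1155 and 934 barcodes with no class. 15 barcodes occurred in both libraries. The class named Mac held 510 control and 229 diabetic cells, with medians of 4506 and 4129 UMIs, and made up 16.7% and 9.07% of classified cells. All 10 macrophage markers were detected in it in both libraries. The Foam cells class held 35 and 17 cells, MoDC 27 and 30, Mono 9 and 19, and ECs 366 and 228, with all 8 endothelial markers detected in ECs. The deleted Apoe had 48 UMIs in control (3.87 CPM) and 63 in diabetic classified cells (5.32 CPM). These 3′ tags do not show whether they come from the deleted stretch, so they check no label. CPM here is the UMIs of a gene summed over the cells of a class, divided by all UMIs of that class and library and multiplied by 1000000.

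A call, higher or lower, means diabetic relative to control. It needed a CPM difference of at least 1.5-fold, a ratio interval that excluded 1, and at least 30 UMIs over both libraries. In Mac, 8.79% of 7373 genes were called higher and 5.66% lower. Of the 10 lipid genes, Gpnmb, Fabp5, Cd5l and Lpl were called higher and Fabp4 lower. Their median log2 ratio was 0.17, against 0.06 over all genes of the class.

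**Figure D1:**
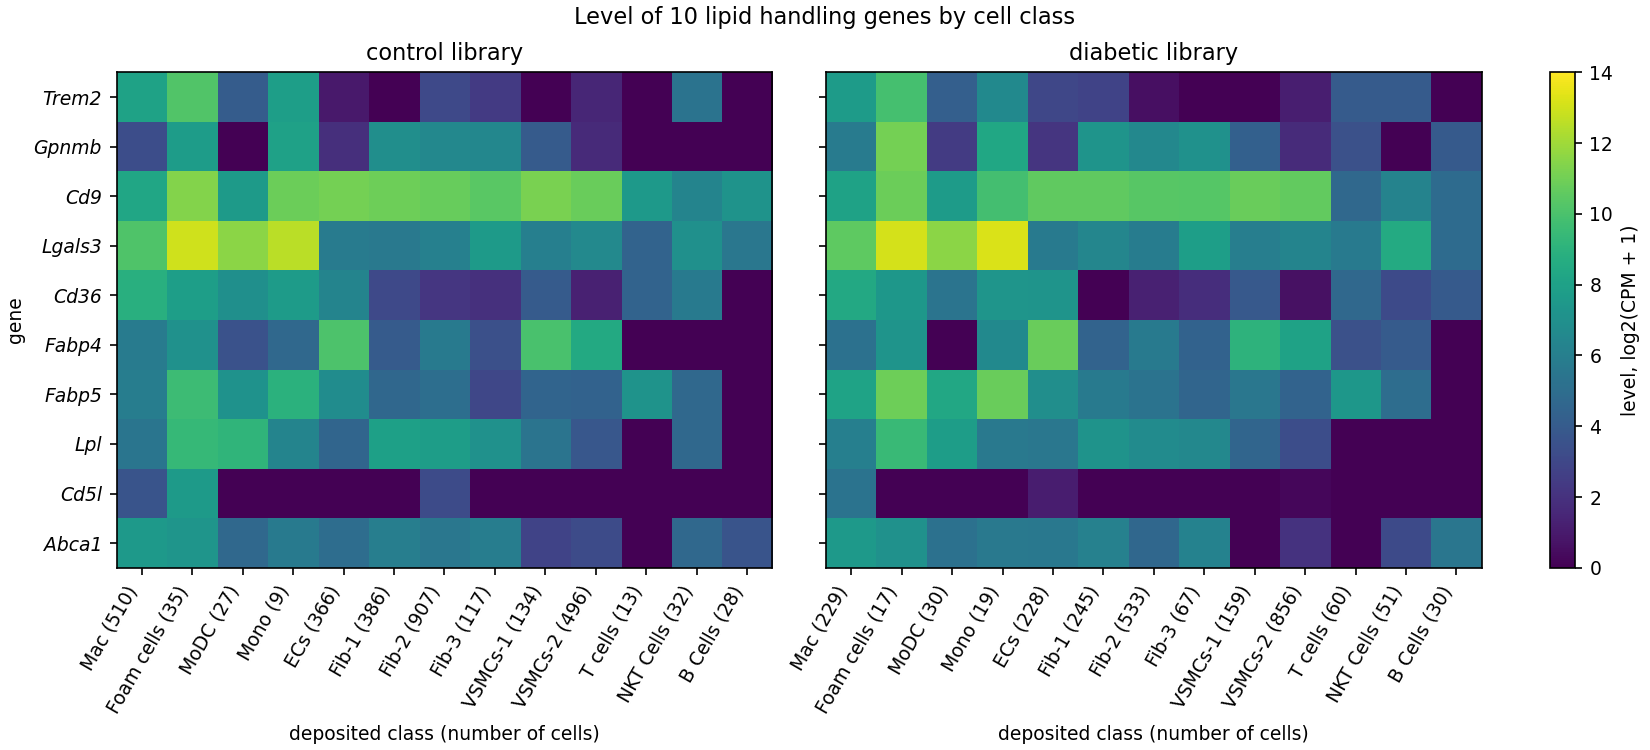
Heat map of the level, as log2(CPM + 1), of the 10 genes (y axis) in each deposited class (x axis, with its number of cells) of the control library (left) and the diabetic library (right), each library 1 pool of 4 mice. Trem2 was high in Foam cells (1192 and 926 CPM) and Mac (267 and 207 CPM), while Fabp4 was high in ECs (1109 and 1758 CPM).

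Among the surface and lysosomal genes, Trem2 encodes a lipid-sensing receptor of macrophages. It had 698 UMIs in control Mac cells (267 CPM, 247 to 287) and 234 in diabetic Mac cells (207 CPM, 181 to 235). The level was thus lower in the diabetic library, with a ratio of 0.776 (0.667 to 0.902), short of the 1.5-fold limit, but the direction turned to 1.24 when scaled to the macrophage markers and to 1.10 when each cell weighed the same. Trem2 UMIs were found in 57.8% of control and 46.7% of diabetic Mac cells. With each cell thinned to 1000 UMIs, which left out 13 control and 30 diabetic cells, the shares were 24.5% and 20.6%. In VSMCs-2, a smooth muscle class that should lack Trem2 (medians 5547 and 6523 UMIs), the thinned shares were 0.202% and 0.117%.

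Gpnmb, a lysosomal membrane glycoprotein gene, was low in control Mac cells, with 23 UMIs (8.79 CPM, 5.57 to 13.2). The diabetic Mac cells held 64 UMIs (56.7 CPM, 43.6 to 72.3). The ratio was 6.44 (3.95 to 10.9), and the call held under every other scaling, depth and choice of cells tried, with ratios from 4.60 to 40.0, but not with a minimum of 100 UMIs. Few cells carried it: 12 of 510 control (2.35%) and 14 of 229 diabetic (6.11%). Thinned shares were 0.402% and 3.02%, against 0.202% and 0% in VSMCs-2, where a count of 0, taken as at most 3 cells, allows up to 0.350% of cells with a UMI. The Gpnmb-positive diabetic cells were shallow, with a median of 2216.5 UMIs against 5406.5 in control, and 7 of the 14 held fewer than 2000.

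Cd9, a membrane-spanning tetraspanin gene, had 823 UMIs in control Mac cells (315 CPM) and 305 in diabetic ones (270 CPM). Its ratio of 0.858 (0.750 to 0.980) was not called and turned to 1.37 when scaled to the macrophage markers. Lgals3, which encodes galectin-3, had 2978 and 1674 UMIs (1138 and 1482 CPM). Its ratio of 1.30 (1.23 to 1.38) also missed the limit, but with that scaling it was 2.07 and was called. In thinned Mac cells Cd9 was seen in 22.1% of control and 18.1% of diabetic cells and Lgals3 in 48.9% and 50.8%. In thinned VSMCs-2, Lgals3 was seen in 5.24% and 5.84% of cells.

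The genes of fatty acid uptake and transport differed from each other in Mac, with Fabp5 and Lpl called higher, Fabp4 called lower and Cd36 not called. Cd36, the scavenger receptor and fatty acid translocase, had 1201 UMIs in control (459 CPM, 434 to 486) and 398 in diabetic cells (352 CPM, 319 to 389). The lower diabetic level had a ratio of 0.767 (0.683 to 0.860), which was not called and turned to 1.22 when scaled to the macrophage markers. Thinned shares of Cd36-positive Mac cells were 34.2% and 30.7%, against 0% and 0% in VSMCs-2, where 0 allows up to 0.605% and 0.350% of cells with a UMI by the same 3-count rule.

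Fabp5, a fatty acid chaperone gene, had 157 UMIs in control Mac cells (60.0 CPM, 51.0 to 70.2) and 311 in diabetic ones (275 CPM, 246 to 308). The ratio of 4.59 (3.77 to 5.59) kept its call under every alternative tried, between 3.13 and 9.51. Fabp5 was found in 15.3% and 24.0% of Mac cells, or 5.63% and 9.05% after thinning, against 2.62% and 2.22% in VSMCs-2.

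Fabp4, the related adipocyte and endothelial chaperone gene, had 145 UMIs in control Mac cells (55.4 CPM) and 41 in diabetic ones (36.3 CPM), each library with 30 positive cells. Its call as lower, at 0.655 (0.451 to 0.932), rested on 1 control cell. That cell held 103 of the 145 UMIs (71.0%). Without it the ratio was 2.04, and scaled to the macrophage markers it was 1.04. The cell had 2204 UMIs, among them 1 of macrophage, 61 of monocyte or dendritic, 8 of endothelial, 27 of capillary endothelial and 0 of adipocyte markers. Thinned shares of Fabp4-positive Mac cells, 1.41% and 2.01%, are set beside 1.45% and 1.31% in the fibroblast class Fib-1 and 4.19% and 3.56% in Fib-2. The control share lay below both and the diabetic share between them, so no macrophage expression is read from these shares.

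Lpl, which encodes lipoprotein lipase, had 111 UMIs in control Mac cells (42.4 CPM, 34.9 to 51.1) and 74 in diabetic ones (65.5 CPM, 51.4 to 82.2). The ratio was 1.54 (1.13 to 2.09), and the call was lost under 6 alternatives of scaling, depth or cells, the lowest at 1.16, and with a 2-fold limit. Thinned shares were 2.82% and 6.03%, against 1.01% and 1.64% in VSMCs-2.

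Cd5l encodes a protein secreted by macrophages that inhibits apoptosis. It was found in 5 Mac cells of each library, with 30 control UMIs (11.5 CPM, 7.74 to 16.4) and 44 diabetic UMIs (38.9 CPM, 28.3 to 52.3). Although the ratio was 3.40 (2.09 to 5.60), 1 control cell of 503 UMIs held 22 of the 30. In the diabetic library 2 cells, of 699 and 847 UMIs, held 18 each. All of these cells are shallow and carried Gpnmb (9, 7 and 7 UMIs). Once Mac cells were thinned the diabetic level was 0, so no direction is read for Cd5l. Abca1, the cholesterol exporter gene, had 483 and 203 UMIs (185 and 180 CPM), a ratio of 0.973 (0.822 to 1.15) and thinned shares of 16.9% and 21.1%. When scaled to the macrophage markers, its ratio passed the 1.5-fold limit and was called higher.

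**Figure D2:**
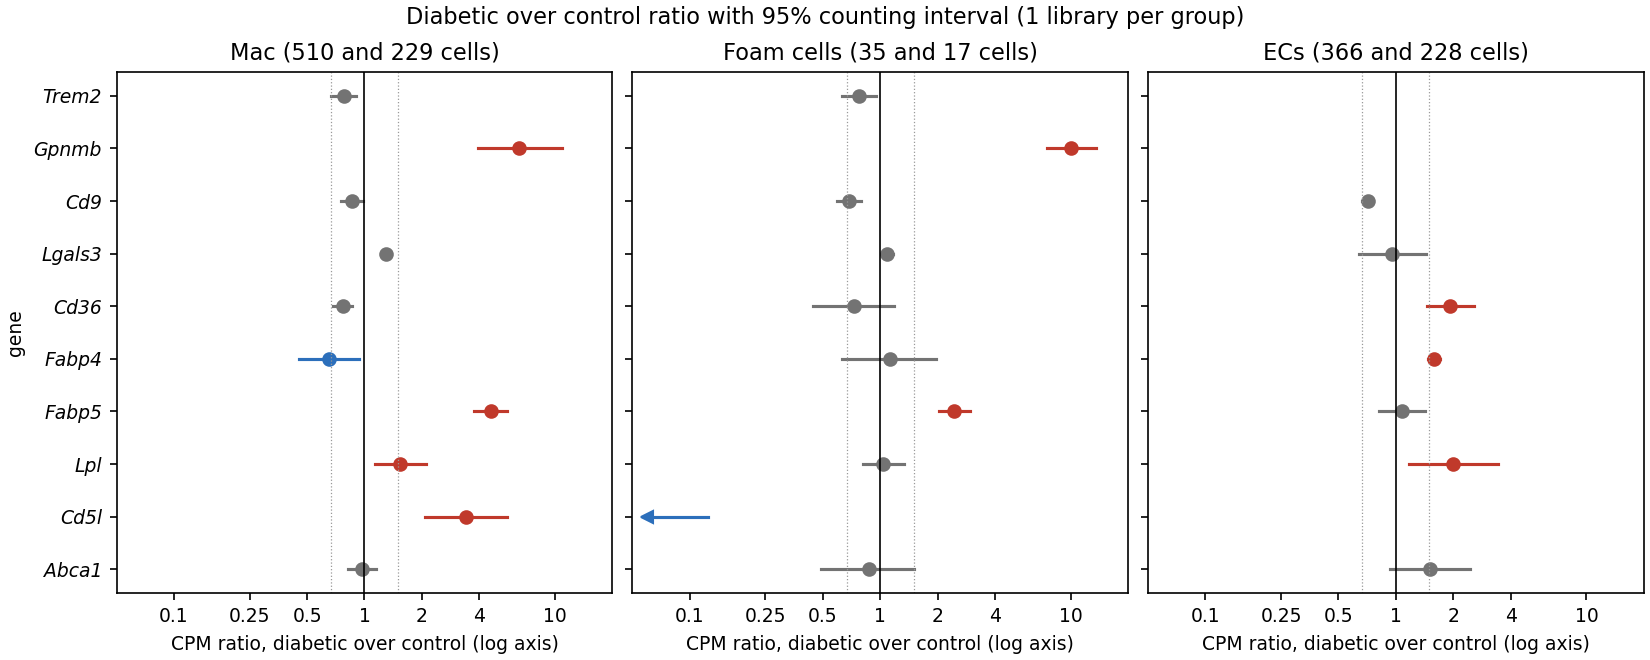
Ratio of diabetic to control level (log axis) of the 10 genes in Mac, Foam cells and ECs, for genes with enough UMIs, with red for called higher, blue for called lower, gray for not called, bars for the 95% counting interval, dotted lines at the 1.5-fold limits and an arrow for a ratio of 0. In Mac the Gpnmb ratio was 6.44 and the Fabp5 ratio 4.59, while Abca1 sat at 0.973.

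Markers of other cell types also moved in Mac. The summed macrophage markers were 41210 CPM in control and 25899 CPM in diabetic Mac cells (0.628), the monocyte and dendritic markers 3789 and 5523 CPM (1.46), the T cell markers 580 and 1206 CPM (2.08) and the smooth muscle markers 301 and 869 CPM (2.89). Adipocyte markers had 23 and 10 UMIs, with Adipoq and Plin1 at 0 in both libraries. Without the Mac cells that held 3 or more UMIs of T cell, B cell or smooth muscle markers, the ratios were 9.24 for Gpnmb, 5.88 for Fabp5, 1.44 for Lpl (no longer called), 1.07 for Trem2, 0.814 for Cd36 and 1.28 for Lgals3. The part of the monocyte, dendritic and macrophage marker shifts was not tested beyond the scaled values above.

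Gpnmb and Fabp5 met in the same few diabetic cells. The 14 Gpnmb-positive diabetic Mac cells held 132 of 311 Fabp5 UMIs (42.4%) and 44 of 44 Cd5l UMIs, and the 12 control ones held 10 of 157 (6.37%) and 28 of 30. Without the Gpnmb-positive cells, Fabp5 was 57.6 CPM in control and 167 CPM in diabetic Mac cells. The ratio of 2.89 (2.31 to 3.62) was smaller than with them, and still past the limit. At 1000 UMIs per cell, the 6 Gpnmb-positive diabetic Mac cells had 6.07 times (5.44 to 6.76) the lipid-associated macrophage list's level in the other 193, a list that holds none of the 10 genes. Their monocyte and dendritic marker level was 0.07 and their fibroblast marker level 6.98 (3.94 to 11.7) times that of the others.

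**Figure D3:**
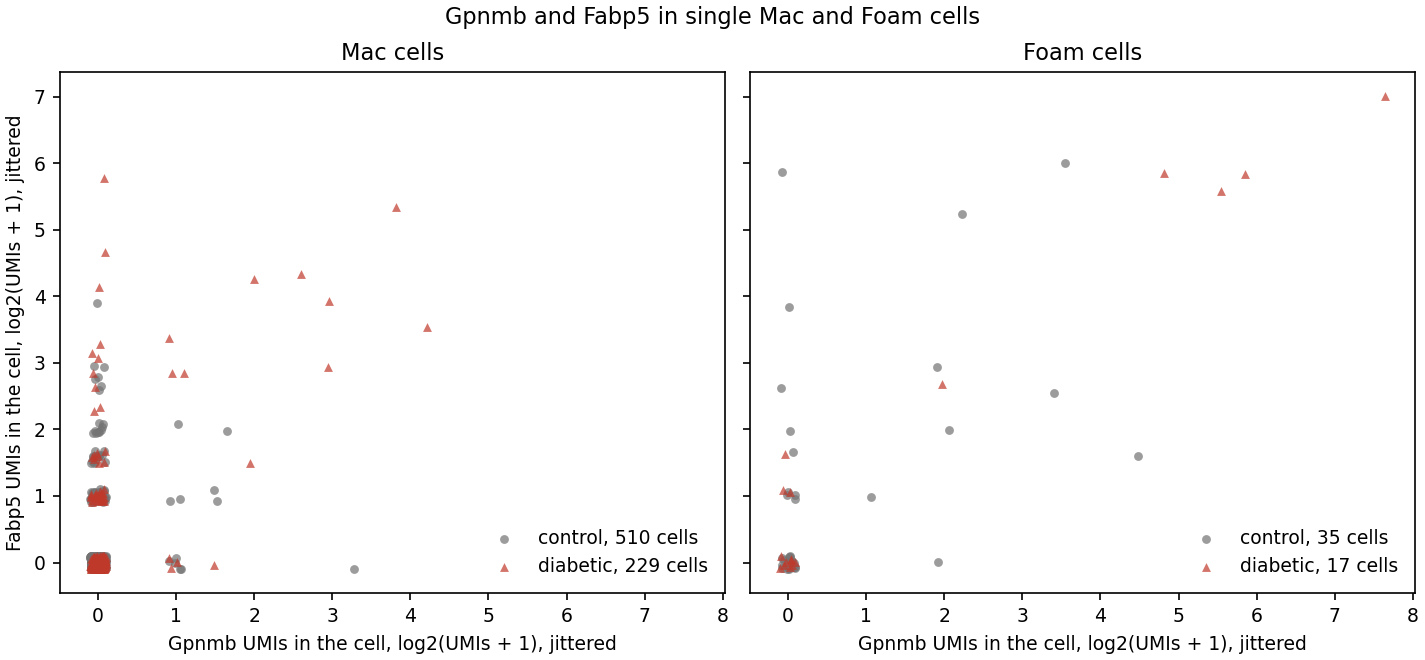
Fabp5 (y axis) against Gpnmb (x axis) in single Mac cells (left) and Foam cells (right), both as log2(UMIs + 1) with jitter, each point 1 control or diabetic cell. In diabetic Foam cells, 5 Gpnmb-positive cells held 292 of 296 Fabp5 UMIs.

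Within Mac, cells positive for a receptor gene differed from negative ones. Thinned Cd36-positive cells had more resident macrophage marker UMIs than Cd36-negative ones, by 1.39 times in control (170 against 327 cells) and 1.69 times in diabetic (61 against 138). Their monocyte and dendritic markers were at 0.31 and 0.33 of the level in negative cells, their Cd9 at 0.43 and 0.41 and their Lgals3 at 0.77 and 0.58. Trem2-positive cells likewise had less of the monocyte and dendritic markers in control (0.25, 122 against 375 cells), while in diabetic cells that value was 0.92 (41 against 158). Fabp5 was at 0.38 in control and at 3.67 (2.34 to 5.77) in diabetic Trem2-positive cells relative to negative ones. Trem2 and Cd9 were detected together in 26 control and 10 diabetic Mac cells, where the product of their shares gives 27.0 and 7.42, and Cd36 and Abca1 in 35 and 20, where it gives 28.7 and 12.9. These are counts over cells of 1 library each and carry no test.

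The Foam cells class fell under the minimum of 20 cells in the diabetic library. Its ratios were computed with a minimum of 15 cells, a choice made after seeing the data. There 5.39% of 1633 genes were called higher and 9.31% lower. Of the 10 lipid genes Gpnmb and Fabp5 were called higher and Cd5l lower, and the median log2 ratio was -0.07, as it was over all genes.

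Trem2 had 303 UMIs in 35 control foam cells (1192 CPM, 1061 to 1334) and 142 in 17 diabetic ones (926 CPM, 780 to 1091). The ratio of 0.777 (0.632 to 0.951) was close to that in Mac, and Trem2 was found in 31 of 35 and 17 of 17 cells. Cd9 had 693 and 287 UMIs (2726 and 1872 CPM, ratio 0.687). Lgals3 was seen in every foam cell, with 2075 and 1367 UMIs (8162 and 8914 CPM, ratio 1.09).

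Gpnmb had 55 UMIs in control foam cells (216 CPM, 163 to 282) and 334 in diabetic ones (2178 CPM, 1951 to 2425), a ratio of 10.1 (7.55 to 13.6). It came from 8 of 35 and 5 of 17 cells, and 1 diabetic cell held 201 UMIs (60.2%). Fabp5 had 200 UMIs in control (787 CPM) and 296 in diabetic foam cells (1930 CPM), a ratio of 2.45 (2.04 to 2.95). The same cells decide both. The 5 diabetic cells held 201, 59, 43, 28 and 3 Gpnmb UMIs with 122, 57, 47, 61 and 5 Fabp5 UMIs, so that 98.6% of diabetic Fabp5 was theirs, against 58.0% in the 8 control cells. Without Gpnmb-positive cells, Fabp5 was 445 CPM in the other 27 control cells and 37.8 CPM in the other 12 diabetic cells, a ratio of 0.085 (0.023 to 0.226). That ratio rested on 84 control and 4 diabetic UMIs, and 1 control cell held 57 of the 84, so no direction is read from it.

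Cd36 (59 and 26 UMIs, 232 and 170 CPM), Lpl (172 and 108 UMIs, 677 and 704 CPM) and Abca1 (40 and 21 UMIs, 157 and 137 CPM) were not called in foam cells. Fabp4 was in 3 foam cells of each library, and 28 of its 34 control and 14 of its 23 diabetic UMIs lay in 1 cell. Cd5l had 51 UMIs in 2 control foam cells (31 and 20 UMIs) and 0 in diabetic ones, at least 10.3-fold lower against a floor of 3 UMIs in the diabetic cells, while the interval of the ratio reaches 0.124. With 2 control cells behind it, this difference is one of 2 cells, and 0 of 17 cells allows up to 17.6% of cells with a UMI by the 3-count rule. Macrophage markers in foam cells were 42584 CPM in control and 35435 CPM in diabetic (0.832), T cell markers rested on 2 and 36 UMIs, and adipocyte markers had 0 UMIs in both.

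In Mono, with 9 and 19 cells, levels are given with no ratio. Diabetic Mono cells had 9478 CPM of Lgals3, 1781 CPM of Fabp5 and 317 CPM of Gpnmb, and control ones 5973, 491 and 259 CPM. A pair of diabetic Gpnmb-positive Mono cells held 125 of the 146 Fabp5 UMIs. In MoDC, where 5.85% of genes were called higher and 11.9% lower, 5 of the 10 lipid genes had enough UMIs. Lpl was called lower, with 111 UMIs in control (575 CPM, 473 to 692) and 49 in diabetic cells (221 CPM, 163 to 292), at a ratio of 0.384 (0.269 to 0.542) that kept its call under every alternative tried. Cd36 was called lower on 24 and 9 UMIs (0.326, 0.133 to 0.727), a call that was lost after thinning. The monocyte and dendritic markers of MoDC were at 0.443, its macrophage markers at 0.530 and its T cell markers at 2.39 of the control level, and their part in the Lpl and Cd36 ratios was not tested. Fabp5 was called higher at 2.38 (1.52 to 3.85), but 1 diabetic cell held 57 of its 74 UMIs and the ratio without that cell was 0.717.

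The endothelial class ECs carried its own set of lipid genes. There 4.18% of 6096 genes were called higher and 4.02% lower. Of the 7 lipid genes with enough UMIs, Fabp4, Cd36 and Lpl were called higher and none lower, with a median log2 ratio of 0.59 against -0.03 over all genes. Trem2 (1 and 6 UMIs), Gpnmb (3 and 3) and Cd5l (0 and 1) were at or near 0.

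Fabp4 had 1212 UMIs in control ECs (1109 CPM, 1047 to 1173) and 1501 in diabetic ECs (1758 CPM, 1670 to 1849). The ratio was 1.59 (1.47 to 1.71). The control UMIs came from 108 cells (29.5%, or 22.4% after thinning) and the larger diabetic number from 60 cells (26.3%, or 19.1%). A minority held most of it: 35 control and 27 diabetic cells with at least 10 UMIs held 80.1% and 92.5%. In Fib-1, a fibroblast class (medians 1410 and 1240 UMIs), the thinned shares of cells were 1.45% and 1.31%, against ECs with medians of 2867 and 3504 UMIs.

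Adipocyte genes were present in some of these cells. Adipocyte markers had 3 UMIs in control and 103 in diabetic ECs, with Adipoq at 0 and 6, Plin1 at 0 and 1 and Cidec at 0 and 4. The 3 diabetic ECs with any of the last 3 genes held 237 of the 1501 Fabp4 UMIs (15.8%). Without them the Fabp4 ratio was 1.34 (1.24 to 1.45), and without the 5 top cells of each library 1.29, so the call was lost in both cases while the direction stayed. Endothelial markers were 7021 and 6547 CPM (0.932) and capillary endothelial markers 1206 and 1325 CPM (1.10). Lymphatic endothelial markers were 381 and 767 CPM (2.02), macrophage markers 388 and 190 CPM (0.489), and monocyte and dendritic markers had 22 and 285 UMIs (16.6). Their part in the Fabp4, Cd36 and Lpl ratios was not tested.

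Cd36 had 86 UMIs in control ECs (78.7 CPM, 62.9 to 97.2) and 130 in diabetic ECs (152 CPM, 127 to 181). The ratio of 1.94 (1.46 to 2.57) kept its call under every other scaling, depth and choice of cells tried, from 1.71, without the cells with adipocyte genes, to 2.48, but not with a 2-fold limit. Cd36 was in 8.20% and 13.6% of ECs, or 5.83% and 9.09% after thinning. Lpl was called higher on 25 and 39 UMIs (22.9 and 45.7 CPM, ratio 1.997, 1.18 to 3.44), from 17 and 16 cells. That call was lost after thinning and without the 5 top cells, with ratios from 1.36 to 5.51 across the alternatives.

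The Fabp4-positive ECs had higher levels of capillary endothelial markers than the negative ones. Thinned to 1000 UMIs, 77 of 343 control and 42 of 220 diabetic ECs were Fabp4-positive, and their capillary endothelial markers were 3.92 and 6.00 times those of negative cells. General endothelial markers were at 0.97 and 0.84 and lymphatic markers at 0.12 and 0.25. Cd36 was at 62.2 and 97.5 times the level of negative cells. Very few of the negative cells carried Cd36, so the size of these values is not read. Fabp4 and Cd36 were found together in 18 control and 18 diabetic ECs, where the product of their shares gives 4.49 and 3.82. Gpihbp1, which encodes the capillary anchor of lipoprotein lipase, had 28 UMIs in control (25.6 CPM) and 115 in diabetic ECs (135 CPM), a ratio of 5.26 (3.45 to 8.26), with 53.6% and 24.3% of its UMIs in 1 cell.

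Cd9, in contrast, was lower in diabetic ECs, with 2365 and 1313 UMIs (2164 and 1538 CPM), a ratio of 0.711 (0.664 to 0.761) and thinned shares of 84.5% and 72.7%. That difference missed the 1.5-fold limit, as did Fabp5 (121 and 102 UMIs, 1.08, 0.821 to 1.42) and Lgals3 (60 and 45 UMIs, 0.960). Abca1 reached 1.51 on 34 and 40 UMIs, but its interval, 0.930 to 2.45, included 1.

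Fibroblasts held much of the Lpl and most of the control Gpnmb. In Fib-2, where 5.43% of genes were called higher and 3.62% lower, 3 of the 8 lipid genes with enough UMIs were called lower and none higher. Lpl had 800 UMIs in control (220 CPM, 205 to 236) and 227 in diabetic cells (107 CPM, 93.8 to 122). The ratio of 0.488 (0.419 to 0.566) kept its call under every alternative tried, from 0.456 to 0.564, and thinned shares of cells were 15.9% and 9.57%. Abca1 was lower as well, with 170 and 52 UMIs (46.8 and 24.6 CPM, 0.526, 0.378 to 0.721). Cd5l had 30 control UMIs, of which 1 cell held 93.3%, and 0 diabetic UMIs, at least 5.82-fold lower against the floor of 3 UMIs, while the interval of the ratio reaches 0.225. Without that cell the call was lost. Gpnmb in Fib-2 had 330 and 194 UMIs (90.8 and 91.7 CPM, ratio 1.01, 0.842 to 1.21). In Fib-2 the fibroblast markers were at 0.751 and the macrophage markers at 0.203 of the control level, the smooth muscle markers were 1061 and 1589 CPM, and the erythroid markers went from 139 to 7993 CPM (57.6). The part of these in the Lpl, Abca1 and Cd5l ratios was not tested, and without mitochondrial, ribosomal and haemoglobin genes in the total all 3 calls held. After thinning, however, the Abca1 call was lost (0.761), as was that of Cd5l.

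In Fib-1, where 3.45% of genes were called higher and 5.26% lower, Lpl was the 1 of 6 lipid genes called (129 and 49 UMIs, 247 and 147 CPM, ratio 0.596, 0.420 to 0.835). In Fib-3, where 4.15% were called higher and 6.58% lower, it was Gpnmb of 5 (63 and 53 UMIs, 87.8 and 133 CPM, ratio 1.52, 1.03 to 2.23). Erythroid markers were 2527 and 46236 CPM in Fib-1 and 113 and 20487 CPM in Fib-3, and both calls held without mitochondrial, ribosomal and haemoglobin genes in the total. The Lpl call in Fib-1 was lost after thinning (0.783), and the Gpnmb call in Fib-3 without the 5 top cells. Lpl in Fib-3, with 97 and 36 UMIs (135 and 90.7 CPM), had a ratio of 0.671 (0.444 to 0.993) and was not called.

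Smooth muscle cells carried Fabp4. In VSMCs-1, 3.23% of genes were called higher and 4.82% lower, and Fabp4 was the 1 of 3 lipid genes called, on 321 control UMIs (991 CPM) and 232 diabetic UMIs (532 CPM), at 0.536 (0.451 to 0.637). A single cell held 220 of the control UMIs and also 348 UMIs of the adipocyte markers. In the diabetic library 1 cell held 131, with 149 of those markers. Without the cells with adipocyte genes the ratio was 0.635, without the top cell of each library 0.735, with equal weight per cell 1.09 and after thinning 1.05, so no direction is read. In VSMCs-2 Fabp4 had 1020 and 1523 UMIs (366 and 266 CPM) in 71.6% and 64.4% of cells, with no single cell above 2.69% of it, and its ratio of 0.727 (0.671 to 0.787) was not called. There 4.77% of genes were called higher and 3.9% lower, and Abca1 was the 1 of 6 lipid genes called, on 23 and 18 UMIs (0.381, 0.194 to 0.738). Erythroid markers were 1.96 times the control level in VSMCs-1 and went from 116 to 11577.5 CPM in VSMCs-2, and both calls held without mitochondrial, ribosomal and haemoglobin genes. The Abca1 call in VSMCs-2 was lost after thinning, with ratios from 0.193 to 0.396 across the alternatives. In NKT Cells, where 6.67% of genes were called higher and 8.13% lower, Lgals3 was called on 10 and 49 UMIs (130 and 377 CPM, 2.90, 1.45 to 6.42). A single diabetic cell held 40.8% of its UMIs, and the call was lost after thinning (2.51), without the top cell (2.13) and without the 5 top cells (4.44, on few UMIs). In B Cells no lipid gene had enough UMIs.

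Classes with at least 15 cells in a library were ordered by level, which leaves control Mono (9 cells) and control T cells (13 cells) out. Trem2 was highest in Foam cells, then Mac, and these did not overlap in either library. Cd9 was also highest in Foam cells, which overlapped VSMCs-1 in the diabetic library. In Mac, at 315 and 270 CPM, Cd9 lay below every endothelial, smooth muscle and fibroblast class. Cd36 was highest in Mac (459 and 352 CPM), which did not overlap the next class in either library. Foam cells followed (232 and 170 CPM), with ECs at 78.7 and 152 CPM. Foam cells overlapped MoDC (124 CPM) in control, and Mono (159 CPM) and ECs in the diabetic library. Fabp4 was highest in ECs, whose control level overlapped that of VSMCs-1 within counting error while the diabetic levels did not. Control Gpnmb was highest in Foam cells (216 CPM), then Fib-1 (121), Fib-2 (90.8) and Fib-3 (87.8), with Mac at 8.79 CPM. In the diabetic library Foam cells had 2178 CPM, followed by Mono (317), Fib-1 (151), Fib-3 (133), Fib-2 (91.7) and Mac (56.7). Fabp5 was highest in Foam cells in control, and in Foam cells and Mono, which overlapped, in the diabetic library. Abca1 was highest in Mac and Foam cells, which overlapped in both libraries. Lpl in control foam cells (677 CPM) overlapped that in MoDC (575 CPM).

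**Figure D4:**
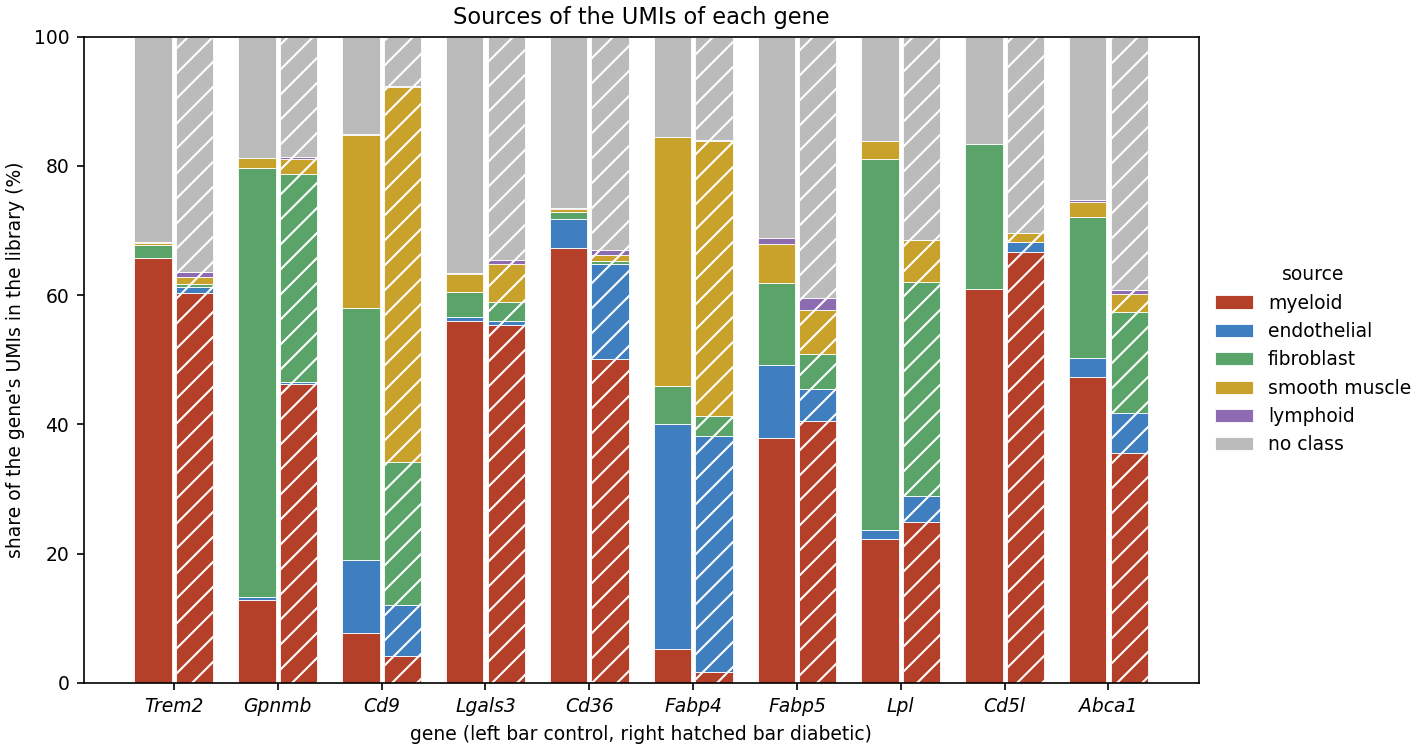
Share of each gene's UMIs in the whole library (percent) held by myeloid, endothelial, fibroblast, smooth muscle and lymphoid classes and by barcodes with no class, with control as plain and diabetic as hatched bars. Myeloid classes held 65.7% of control and 60.3% of diabetic Trem2 UMIs, barcodes with no class 31.8% and 36.4%.

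Of the UMIs in classified cells alone, myeloid classes held 96.3% of control and 94.9% of diabetic Trem2 UMIs, 88.3% and 84.5% of Lgals3 and 73.0% and 95.7% of Cd5l. Their share of Cd36 was 91.6% and 74.8%, with the endothelial share at 6.09% and 21.8%. Cd9 lay mostly elsewhere, with 45.7% and 24.0% in fibroblasts, 31.6% and 62.8% in smooth muscle and 9.15% and 4.58% in myeloid classes. For Gpnmb the myeloid share was 15.8% in control and 56.7% in the diabetic library, and the fibroblast share 81.7% and 39.7%. Fabp4 lay mainly in smooth muscle (45.6% and 50.8%) and endothelium (41.2% and 43.4%). Lpl lay in fibroblasts (68.4% and 48.1%) and myeloid cells (26.5% and 36.3%). The barcodes with any UMI of Adipoq, Plin1 or Cidec, with or without a class, were 9 in control (0.214%) and 18 in the diabetic library (0.521%). They held 6.51% and 21.2% of all Fabp4, 0.504% and 14.9% of Lpl and 0.261% and 3.82% of Cd36 UMIs.

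Summed over all classified cells, 8.95% of 12753 genes were called higher and 10.1% lower. Fabp5 was called higher (59.1 and 103 CPM, 1.74, 1.59 to 1.91). Trem2 (0.407), Cd36 (0.442), Lpl (0.453), Cd5l (0.434) and Abca1 (0.503) were called lower, and the median log2 ratio of the 10 genes was -0.62 against 0.02 over all genes. In such sums fewer cells of a type and less RNA per cell cannot be told apart. Of the whole libraries, myeloid classes held 20.3% of control and 8.99% of diabetic UMIs, and barcodes with no class 19.1% and 32.9%. These shares are thus not shares of the classified cells summed here. Within Mac the Trem2 and Abca1 ratios by CPM were 0.776 and 0.973, and both were above 1 when scaled to the macrophage markers.

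Other genes of lipid handling, from lists fixed by function, are set against the background share of 14.4% of genes called in either direction in Mac. Of 7 receptors for modified lipoproteins 2 were lower, Cd68 (0.646) and Colec12 (0.612). Of 3 lipoprotein receptors Sorl1 was higher (1.60), and of 12 cholesterol storage genes Plin3, a lipid droplet coat protein gene, was lower (0.587). Of 11 efflux and LXR genes Abcg1, a cholesterol exporter, was higher (1.59) and Abca9 (0.343) and Pltp (0.661) were lower. None of 11 PPAR and fatty acid transport genes was called. The median log2 ratios of these lists were -0.40, 0.21, -0.14, 0.16 and -0.03. The summed macrophage markers of Mac, which include Cd68, were at 0.628 of the control level. The list ratios were not scaled to these markers, whose part in the lower calls was not tested.

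Of 17 genes of the lipid-associated macrophage list, Spp1, which encodes osteopontin, was higher in diabetic Mac cells (209 and 436 UMIs, 79.9 and 386 CPM, ratio 4.83), as was Itgax (2.38), an integrin gene also among the dendritic markers. For Spp1, 1 Mac cell of each library held 24.9% of control and 34.6% of diabetic UMIs. Of the 3 lower ones the cathepsin genes Ctsb (0.653) and Ctsd (0.661) are named, and the median log2 ratio was -0.13. Of 12 resident macrophage genes 5 were lower and none higher, among them Lyve1 (0.535), Timd4 (0.449), Pf4 (0.663) and Mertk (0.474), with a median of -0.51. These Mac ratios were not scaled to the macrophage markers (0.628) either. In Foam cells Spp1 was lower instead (0.130), with Ctsl (0.338) and Mmp12 (0.379), while Creg1 (2.11) was higher: 2 of 17 were higher and 4 lower. The difference in Spp1 between Mac and Foam cells was not tested. In ECs the lists were set against 4.18% of all genes called higher and 4.02% lower. Higher were Scarb1 (1.85) of 4 receptors for modified lipoproteins, Nr1h3 (1.96) of 10 efflux and LXR genes, Gpihbp1 of 6 PPAR and fatty acid transport genes and Tyrobp (1.62) of 12 lipid-associated genes. Of 6 resident macrophage genes Lyve1 (3.13) was higher and Pf4 (0.126) lower, and none of 1 lipoprotein receptor and 10 storage genes was called. In 1 cell lay 44.4% of control and 56.1% of diabetic Lyve1 UMIs and 42.2% and 40.4% of Tyrobp UMIs.

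Genes with a pattern like those of the lipid genes were sought by Pearson's r of log2(CPM + 1) over 22 class and library profiles, among 9977 genes. A profile needed at least 20 cells, which left out diabetic Foam cells (17 cells) and Mono (19 cells). These had the highest diabetic levels of Gpnmb (2178 and 317 CPM) and Fabp5 (1930 and 1781 CPM), so the r values of both genes omit them. The profiles of a library share its preparation and depth, so these values are descriptions. Closest to Trem2 were Fcgr1 (0.91), an Fc receptor gene, Myo1f (0.91), Lair1 (0.90), Lamtor1 (0.87) and Clec4n (0.86). Closest to Fabp4 were Cav2 (0.93), a caveolin gene, Aqp1 (0.92), a water channel gene of capillary endothelium, Uqcr11 (0.88), Sema3f (0.88) and Aplp2 (0.87). Cd5l was closest to Adap2 (0.87), Il10 (0.86), Abcc3 (0.84), Zmynd15 (0.82) and Mmp12 (0.81), and Lpl to Naaa (0.90), Anxa5 (0.89), Fam102b (0.88), Lamp2 (0.87) and Hexa (0.87). Among the 10 lipid genes, Trem2 had r of 0.79 with Cd5l, 0.78 with Lgals3, 0.69 with Cd36 and 0.65 with Fabp5, but 0.05 with Gpnmb and -0.08 with Fabp4, while Cd9 and Fabp4 had 0.72. Cd5l had 0 UMIs in most profiles and otherwise rested on few cells, such as 2 control foam cells. No pattern is therefore read from its r values.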

How the data were processed

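Single cells of the pooled aortae were counted by the authors per gene and barcode, and the deposited values are raw UMI counts in 1 matrix per library, with a deposited classification of the cells. Cell Ranger 3.1.0, Partek and mm10 are named per the submitters' processing notes, and how doublets were treated upstream is not given in the sources used here. No doublet was removed here and cells were kept as classified.

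Counts were summed per class and library and scaled to CPM. CPM intervals are exact Poisson, shares of cells above 0 exact binomial (Clopper-Pearson), and ratios have an exact conditional binomial interval, all at 95%. The limit that a count of 0 allows is set at 3 counts. Because PCR copies were collapsed by UMI but each group is 1 pool, these cover counting error only. Classes needed 20 cells in each library for a ratio (15 for Foam cells, chosen after seeing the data). Shares of cells were compared after thinning each cell to 1000 UMIs. The ratio step was tested on simulated counts. The control matrix held 15314749 UMIs and the diabetic matrix 17647604.

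The 10 genes and the lists were chosen with earlier results of these data known. Beyond the 10 genes, up to 4 genes per list and class are named, those called whose interval bound lies farthest from 1, with the 5 genes most like Trem2, Fabp4, Cd5l and Lpl among those with at least 100 UMIs. Alternatives changed the scaling (including edgeR 4.0.16 TMM), the weight of cells, the depth, the limits and the cells kept. Promoters came from RefSeq and positions from the GRCm38 annotation, which matched 19124 of 19357 genes. Software was python 3.11.15 with numpy 2.4.6, scipy 1.17.1, pandas 2.3.3 and matplotlib 3.10.9, and R 4.3.3.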

Additional observations from a re-analysis of the deposited data

Results flagged for a closer look

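Of the lipid genes, 4 were called in opposite directions in different classes. These differences between classes were not tested, since each group is 1 library. Lpl was higher in diabetic Mac cells (1.54) and ECs (1.997) and lower in MoDC (0.384), Fib-1 (0.596) and Fib-2 (0.488). Cd36 was higher in ECs (1.94) and lower in MoDC (0.326). After thinning, the Lpl calls in Mac, ECs and Fib-1 and the Cd36 call in MoDC were lost. Fabp4 was higher in ECs (1.59) and lower in Mac (0.655) and VSMCs-1 (0.536), where 1 control cell of each class held most of its UMIs. Cd5l had a ratio of 3.40 in Mac, where it came from 5 cells per library and no direction is read, and of 0 in Fib-2, where a single control cell held 28 of 30 UMIs.

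Barcodes with no class also differed between the libraries. Among those with 3000 or more genes (73 control and 114 diabetic), Fabp5 had 214 and 809 UMIs (180 and 438 CPM), a ratio of 2.43 (2.09 to 2.84), while Trem2 was at 0.512, Lpl at 0.589 and the macrophage markers at 0.488. Gpnmb there had 70 and 157 UMIs, and its ratio of 1.44 (1.08 to 1.94) missed the 1.5-fold limit. Among those with over 10% mitochondrial UMIs (150 control and 324 diabetic), Fabp4 had 107 and 534 UMIs, a ratio of 2.19 (1.77 to 2.72), and Lpl 10 and 133 UMIs, a ratio of 5.83 (3.07 to 12.4). In the diabetic library 6 barcodes of that kind, each with at least 25 UMIs of the adipocyte list, held 443 Fabp4 and 120 Lpl UMIs.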

How the results depend on the processing

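Of 22 called ratios of single genes, 5 kept their call under every other scaling, depth and choice of cells run: Gpnmb and Fabp5 in Mac, Lpl in MoDC and Fib-2, and Cd36 in ECs. Of these, Gpnmb in Mac lost it with a minimum of 100 UMIs and Cd36 in ECs with a 2-fold limit. The 5 calls in Mac became 3 after thinning to 1000 UMIs, 3 with a minimum of 100 UMIs and 3 with a 2-fold limit. By choices made after seeing the data, they became 2 with Mac and Foam cells pooled and 3 without the 5 top cells of each gene. Of those last 3, only Gpnmb and Fabp5 had kept their call, and the other call was not among the 5. The 3 calls in ECs became 0 with the 2-fold limit and 1 without the 5 top cells. The 11 calls in the other classes became 4 after thinning, 7 with a minimum of 100 UMIs and 7 with the 2-fold limit. Of the 4 after thinning, only Lpl in MoDC and Fib-2 and Gpnmb in Fib-3 had kept their call. The other was not among the 11.

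Directions turned for Fabp4 in Mac (2.04 without the top cell, 2.10 without 5, 1.04 scaled to macrophage markers). The same holds for Fabp5 in MoDC (0.717 without the top cell, 0.643 without 5). Fabp4 in VSMCs-1 turned as well (1.09 with equal weight per cell, 1.05 after thinning). The cause was not tested, beyond the cells named. Cd5l in Mac came to 0 after thinning, but that leaves out the shallow cells with most of its UMIs and bears on no direction. In Foam cells, Gpnmb and Fabp5 came to 0 and 0.315 without the 5 top cells, but that step removes all 5 Gpnmb-positive diabetic cells and leaves fewer than 30 UMIs of each gene, so it bears on neither direction. TMM scaling shifted log2 ratios by -0.12 in Mac, -0.10 in Foam cells and -0.20 in B Cells, and by 0.15 in MoDC and 0.14 in NKT Cells. Scaling to macrophage markers, the removal of Mac cells with 3 or more UMIs of T cell, B cell or smooth muscle markers and the minimum of 15 cells were also chosen after seeing the data. No paired analysis was possible because each group is 1 library. Counts under 30 UMIs, and classes of few cells, limit what depth can show.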

Other observations

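The barcodes with no class held a part of the lipid genes that the class values leave out: 31.8% of control and 36.4% of diabetic Trem2 UMIs, 31.2% and 40.5% of Fabp5 and 36.6% and 34.5% of Lgals3, against 19.1% and 32.9% of all UMIs. In the diabetic library 487 of the 934 had more than 50% haemoglobin UMIs, against 29 of 1155 in control. The barcodes with no class and 3000 or more genes alone held 18.7% of control and 35.6% of diabetic Trem2 UMIs, and 20.1% and 39.6% of Fabp5. In control, 903 barcodes with no class were past none of the limits on genes, mitochondrial or haemoglobin UMIs, and 180 of them carried Trem2, while the diabetic library had 9 such barcodes.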
